A study of Mus musculus with 8 samples.

Results

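The nuclear genes that encode the subunits of the oxidative phosphorylation machinery were examined in proliferating C2C12 cells, a mouse myoblast line. Members were taken by gene symbol, as the Nduf subunit genes of complex I, the 4 Sdh genes of complex II, the Uqcr genes and Cyc1 of complex III, the Cox4 to Cox8 subunit genes of complex IV and the Atp5 genes of complex V. This gave 86 of the 24573 genes in the deposited table, of which 38 belong to complex I, 4 to complex II, 9 to complex III, 18 to complex IV and 17 to complex V. A filter on low counts kept 77 of them, as 36, 4, 9, 11 and 17. The subunits that mitochondrial DNA encodes are outside the rule, and no gene under their names stood in the table.

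RNA-seq covered 8 libraries in 4 groups of 2. All cells had been transduced with a lentivirus carrying an shRNA and kept under puromycin, and the groups differ in its target: a scramble control, Brd9, Baf250A or Baf180. Brd9 marks the non-canonical BAF chromatin remodelling complex, Baf250A (gene Arid1a) the canonical BAF complex and Baf180 (gene Pbrm1) the PBAF complex. Each group's titles carry 1 hairpin code (s39, s06 and s81 for the 3 targets), so a target is represented by 1 shRNA line, and the titles number the replicates without saying whether they were separate cultures. Every p-value below therefore rests on differences between libraries of the same group, pooled over the groups of a fit. These differences may be technical only. Since these are bulk cultures, fewer cells of a type and less RNA per cell cannot be told apart.

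The electron transport chain passes electrons from NADH (complex I) and succinate (complex II) through ubiquinone, complex III and cytochrome c to oxygen at complex IV, pumping protons that drive ATP synthase, complex V. Complex II is also an enzyme of the tricarboxylic acid cycle, is encoded wholly in the nucleus and pumps no protons. In muscle, respiratory capacity is known to rise as myoblasts leave the cell cycle and fuse, and several subunits have isoforms that replace the widespread form in heart and skeletal muscle. Transcription of the nuclear genes is known to be driven by factors such as NRF1, GABP, YY1 and the ERR receptors, with coactivators of the PGC-1 family.

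Totals ran from 17763062 to 20400855 counts per library, of which the members took 1.08% to 1.43%. Counts for the targeted genes, in the order scramble, Brd9, Baf250A and Baf180 with replicate 1 first, were 717, 637, 157, 135, 768, 838, 593 and 670 for Brd9, and 2834, 2720, 3618, 3215, 1335, 1243, 2747 and 3269 for Arid1a. Pbrm1 had 876, 969, 1365, 957, 1483, 2325, 65 and 86 counts. Each target was lowest in both libraries of its own group, with log2 fold changes of -2.39, -1.27 and -3.63. All 8 myoblast markers listed (Myod1, Myf5, Cdh15, Des, Itga7, Msc, Pax7 and Vgll2) passed the filter, with summed levels of 1593 and 1609 CPM in scramble, 1187 and 1613 in Brd9, 771 and 995 in Baf250A, and 2196 and 3184 in Baf180. In Baf250A 5 of the 8 were called lower and 1 higher, with Msc at 0 in both libraries, and in Baf180 4 were called higher and 2 lower. Smooth muscle markers, a list of 6, summed to 3874 and 3885 CPM in scramble, 5632 and 6939 in Brd9, 9067 and 10616 in Baf250A, and 9422 and 11721 in Baf180. The 12 markers of differentiating myotubes summed to 19.7 and 24.4 CPM in scramble, 18.4 and 24.0 in Brd9, 42.1 and 37.7 in Baf250A, and 118 and 97.3 in Baf180, with Acta1 most of it and Myh8 at no more than 1 count. Of the 6 myotube markers that passed the filter, Brd9 had 4 called higher, Myog, Mymk, Myh3 and Mylpf, and none lower (median 1.91), Baf250A had 1 higher and 1 lower, and Baf180 2 higher and 1 lower. Fibroblast markers summed to 40.7 to 77.3 CPM, nearly all of it Pdgfra and Cd34 with Lum at 0, and adipocyte markers to 15.2 to 55.4, nearly all of it Pparg and Cebpa with Plin1 and Cidec at 0. Macrophage markers summed to at most 3.59 CPM, with Adgre1 and Itgam at 0 in every library, endothelial markers to at most 0.63, with Emcn at 0, and brown adipocyte markers to at most 2.47, with Ucp1 at 0. Whether these shifts in muscle markers had a part in the members' values was not tested.

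The 77 tested members were expressed well above the typical gene, with a median of 95.1 CPM against 26.3 CPM over all 12420 genes tested. CPM here are read counts relative to the library size, scaled by TMM (trimmed mean of M-values). Levels between genes are compared as CPM per kilobase, with the gene length given in the deposited table and the mean taken over the 8 libraries. Complex V held the highest level, with Atp5b, the catalytic beta subunit of ATP synthase, at 1286 CPM per kilobase and Atp5g2, a gene of the proton-carrying subunit c, at 617. In complex IV Cox6a1 stood at 460.0 and Cox4i1, the regulatory subunit present in most tissues, at 378. Cyc1, the haem-bearing cytochrome c1, led complex III at 253 and Uqcr11 followed at 233. Ndufa4 led the Nduf genes at 243, ahead of Ndufb9 at 236. NDUFA4 was first placed in complex I and is now assigned to complex IV, and it is grouped here by its symbol. Sdhb, the iron-sulphur subunit, led complex II at 134, ahead of Sdhc, a membrane anchor, at 102. The lowest level among tested members was that of Ndufs4, an accessory subunit of complex I, at 17.6.

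**Figure D1:**
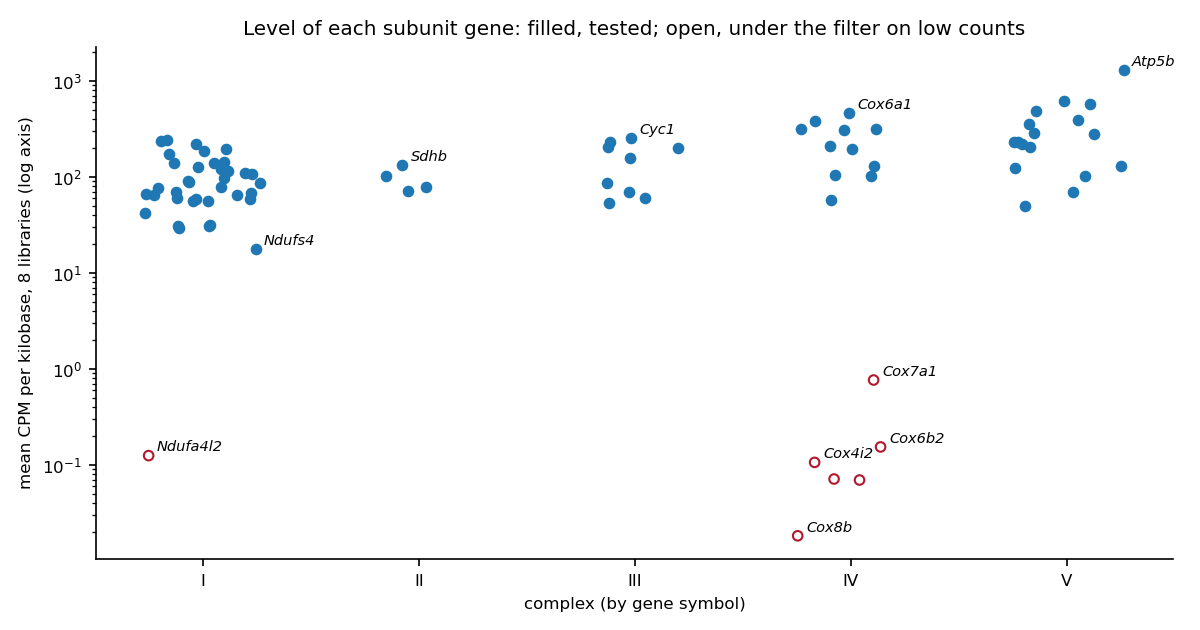
Mean level of each subunit gene over the 8 libraries in CPM per kilobase (log axis), by complex. Filled points are the 77 tested genes, from Ndufs4 at 17.6 to Atp5b at 1286; open points are genes under the filter on low counts, which all lie lower, and 2 genes without any count are not drawn.

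Of the isoforms restricted to particular tissues, none was expressed at a level that could be tested. Cox7a1, the heart and skeletal muscle form of subunit VIIa, had 7 and 0 counts in scramble, 7 and 3 in Brd9, 2 and 0 in Baf250A, and 17 and 8 in Baf180. Its counterpart in other tissues, Cox7a2, had 70.6 and 79.0 CPM in scramble and between 68.1 and 97.7 CPM in the knockdowns. Cox7a2l, a relative that joins complexes III and IV into supercomplexes, had 112 and 111 CPM in scramble and 88.6 to 146 elsewhere.

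The hypoxia form Cox4i2 had at most 7 counts in a library, Cox6b2, the testis form, at most 7, and Cox6a2, the muscle form, at most 2. Cox8b, the muscle form of subunit VIII, had 1 count in a single library, and Cox7b2, Ndufa4l2, Cox8c and the pseudogene Ndufs5-ps reached at most 3, 6, 0 and 0 counts. A count of 3, the limit that no count allows, corresponds to 0.145 to 0.174 CPM, which covers counting error only. The widespread partners Cox4i1, Cox6a1, Cox6b1, Cox8a and Ndufa4 all passed the filter.

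Subunit c of ATP synthase, whose ring turns with the passage of protons, is encoded by 3 genes that give the same mature protein. Per kilobase, Atp5g2 gave 47.6% and 47.3% of their sum in scramble, 46.7% and 47.4% in Brd9, 45.9% and 43.3% in Baf250A, and 52.5% and 49.5% in Baf180. Atp5g3 gave 32.4% and 31.3% in scramble and 27.2% and 28.3% in Baf180, and Atp5g1 20.0% to 24.6% over all libraries. None of the 3 genes was called against scramble in any group, and the order Atp5g2, Atp5g3, Atp5g1 held in all 8 libraries.

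For the knockdowns, each gene was tested against scramble with edgeR's quasi-likelihood test on all 12420 genes, and a gene is called at a Benjamini-Hochberg adjusted p below 0.05. The 3 comparisons share the same 2 scramble libraries. Against scramble, few of the 77 tested members were called: 2 in Brd9 (both lower), 6 in Baf250A (all higher) and 11 in Baf180 (9 higher and 2 lower). These are 2.6%, 7.79% and 14.3% of the members, beside 10.0%, 29.5% and 34.2% of all genes tested. By direction, 6.45%, 15.5% and 17.2% of all genes were called higher in Brd9, Baf250A and Baf180, and 3.57%, 14.0% and 17.0% lower. In all, 17 members were called in at least 1 comparison with scramble and 60 in none. At an unadjusted p below 0.05 the counts were 16, 12 and 18 of the 77 members, beside 3769, 5523 and 5820 of the 12420 genes.

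The fold changes were small as well. No tested member passed 2-fold in Brd9, and 1 did in Baf250A (Cox7b) and in Baf180 (Sdhd), beside 8.76%, 17.4% and 17.5% of all genes. A change of 1.5-fold was passed by 6.49%, 7.79% and 7.79% of the members and by 23.1%, 36.2% and 39.3% of all genes. The median standard error of a log2 fold change was 0.17 for the members and 0.20 for all genes in each of these comparisons. The members' ranges of the 2 libraries did not overlap with scramble's for 54 of 77 members in Brd9, 59 of 77 in Baf250A and 32 of 77 in Baf180. Over all 12420 genes the counts were 8071, 9411 and 8949, or 65.0%, 75.8% and 72.1%.

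In Brd9 the median log2 fold change of the members was -0.24, with 62 of 77 below 0, beside a median of 0.04 over all genes. By complex the medians were -0.21 for I, -0.26 for II, -0.25 for III, -0.28 for IV and -0.37 for V. In Baf250A the median was -0.15, with 51 below 0, and in Baf180 it was 0.15, with 57 above 0; all genes had -0.02 in both. The complex medians in Baf180 ran from 0.06 (III) to 0.22 (I and IV), and those in Baf250A from -0.22 (V) to -0.07 (IV). These medians describe the list and no test was made of them.

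**Figure D2:**
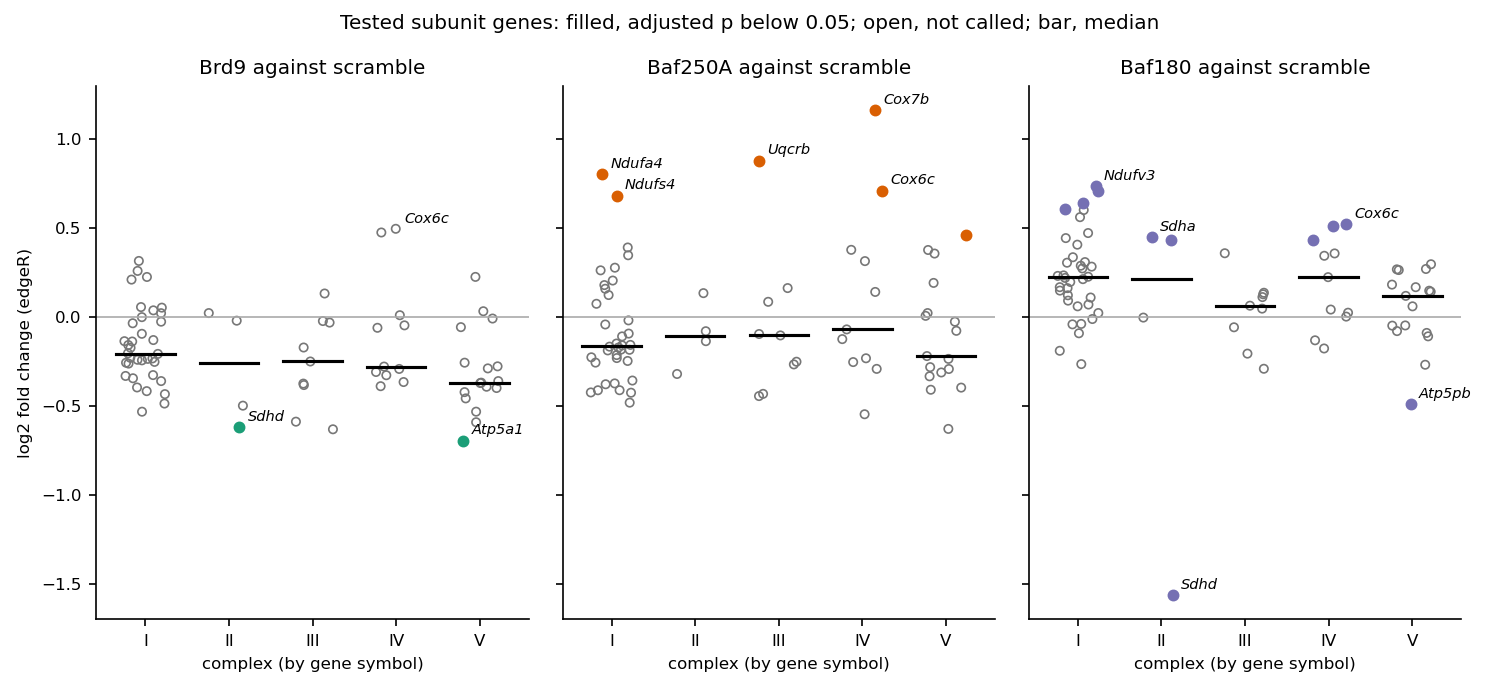
Log2 fold change of each tested subunit gene against scramble in the 3 knockdowns, by complex; filled points were called at an adjusted p below 0.05, open points were not, and bars are medians. Sdhd at -1.56 in Baf180 is the lowest point of the 3 panels, and the called genes in Baf250A all lie above 0.

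The 2 libraries of a group did not contribute equally to these medians. The median deviation of the members from their own 8-library mean was -0.31 and -0.07 (log2) in the Brd9 replicates, 0.36 and 0.06 in the Baf180 replicates, -0.02 and -0.10 in Baf250A, and 0.05 and 0.02 in scramble. Brd9 replicate 1 and Baf180 replicate 1 thus stood apart from their partners and also have the highest and the lowest TMM factor of the 8, and in complex V they reached -0.41 and 0.36. Without Brd9 replicate 1 the members' median against scramble was -0.11, and without Baf180 replicate 1 it was 0.02. The lone library left in a group is assumed to vary as the other groups do.

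**Figure D3:**
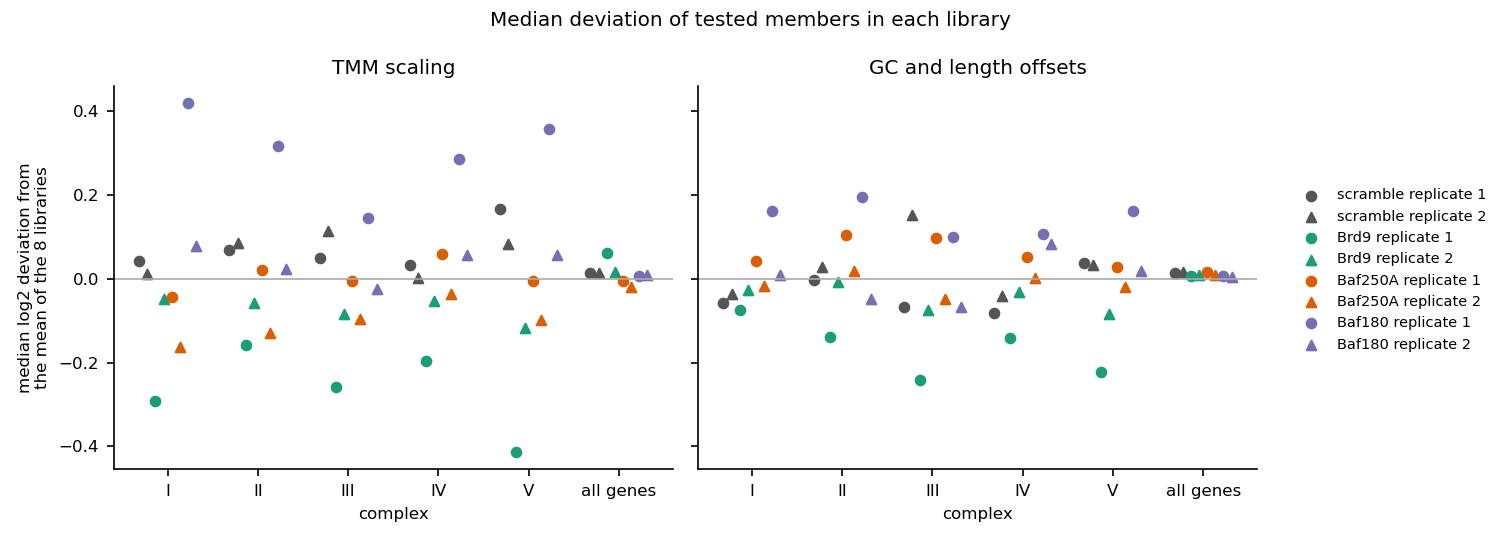
Median deviation of the tested members of each complex from the mean of the 8 libraries (log2), per library, with TMM scaling on the left and with offsets for GC content and length on the right. With TMM scaling Brd9 replicate 1 is lowest in every complex and Baf180 replicate 1 highest, while the medians over all genes lie near 0.

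The members' fold changes also went with the GC content of their transcripts. Members are short (median 693 bases, against 2866 over the genes tested) and have a median GC content of 51.6%, against 50.5%. Across the 77 members, Spearman's rho between GC content and the log2 fold change was -0.44 in Brd9, -0.69 in Baf250A and 0.51 in Baf180, and over all genes it was -0.30, -0.53 and 0.59. These correlations describe genes that share libraries and are not replicates. Each library was therefore also fitted with offsets for GC content and length, which moved the members' medians to -0.06 in Brd9, 0.02 in Baf250A and 0.10 in Baf180.

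With these offsets 9 members were called in Brd9 (3 higher and 6 lower), 7 in Baf250A (6 and 1) and 25 in Baf180 (19 and 6), beside 28.1%, 35.7% and 38.0% of all genes. Calls made in both fits with the same sign numbered 2, 2 and 7, and 17, 27 and 26 of the 77 log2 fold changes had opposite signs in the 2 fits. In Baf180 the offsets left a rho of -0.61 across the members, so the relation to GC content changed its sign there rather than going to 0, while it was 0.03 in Brd9 and 0.06 in Baf250A. Results below are given with TMM scaling, and for members called against scramble the value under the offsets is given too.

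**Figure D4:**
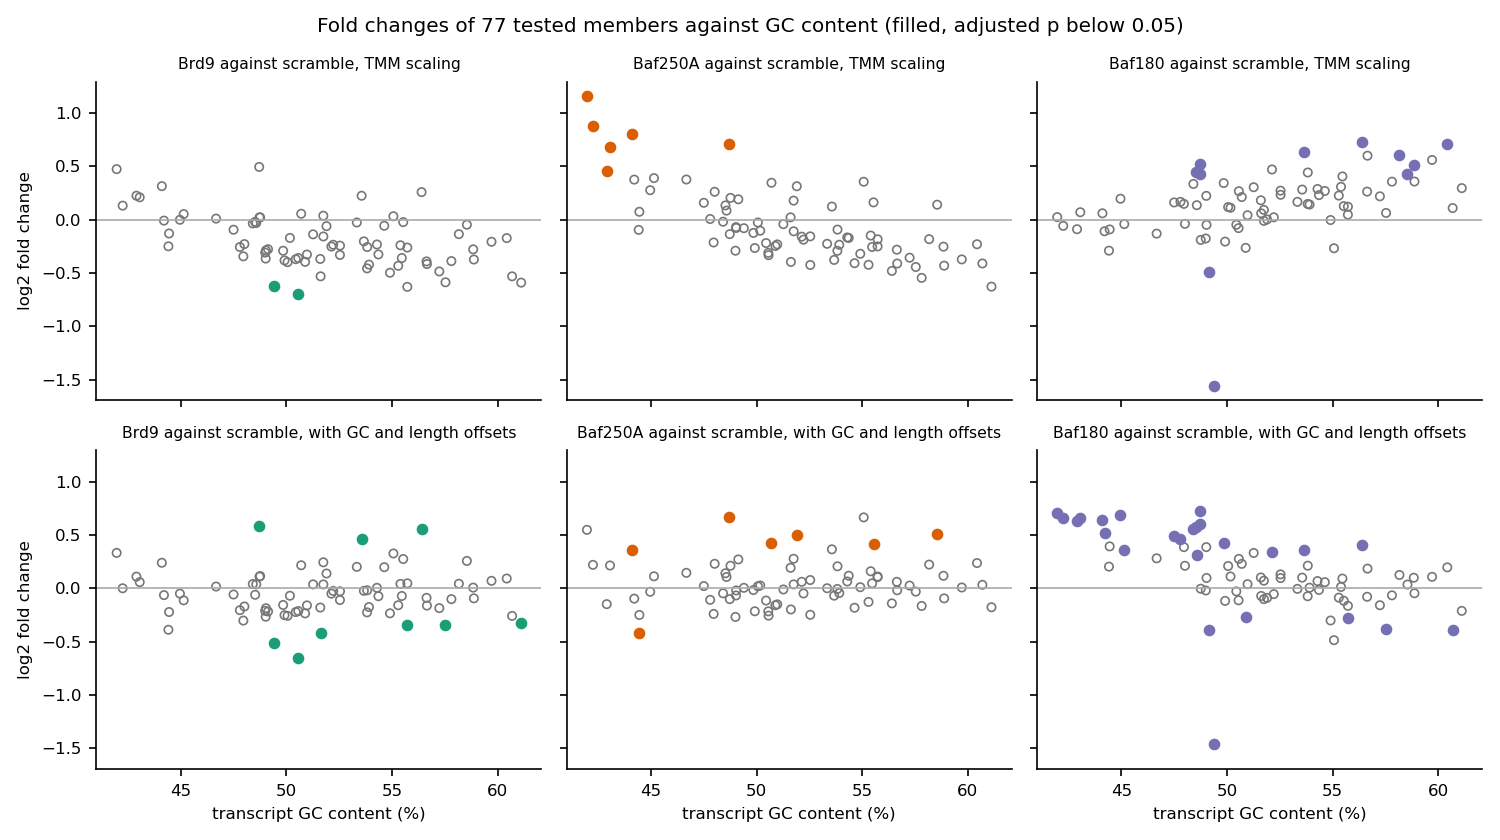
Log2 fold change of the 77 tested members against scramble plotted against transcript GC content (%), with TMM scaling in the upper row and with GC and length offsets in the lower row; filled points were called at an adjusted p below 0.05. The rank correlations of the upper row are -0.44, -0.69 and 0.51, and those of the lower row 0.03, 0.06 and -0.61.

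Complex II held the largest change of any member. Its 4 genes encode the flavoprotein Sdha, which oxidises succinate, the iron-sulphur protein Sdhb, and the anchors Sdhc and Sdhd, which together bind ubiquinone and haem in the inner membrane. Sdhd lies on chromosome 9 and Sdha on chromosome 13, and because these genes moved in opposite directions in Baf180 their promoters are shown. The RefSeq sequences (build GRCm38.p6, minus strand, chr9:50603800-50604099 and chr13:74350191-74350490) run from 250 bases before to 50 bases after the start. Capitals mark the motifs described after the sequences.
Sdhd: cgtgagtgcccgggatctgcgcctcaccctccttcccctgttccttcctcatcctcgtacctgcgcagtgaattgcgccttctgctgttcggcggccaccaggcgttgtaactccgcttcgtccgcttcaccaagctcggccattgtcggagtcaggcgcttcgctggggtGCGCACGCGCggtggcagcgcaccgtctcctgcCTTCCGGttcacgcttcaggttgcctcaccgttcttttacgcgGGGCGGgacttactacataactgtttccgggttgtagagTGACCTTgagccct
Sdha: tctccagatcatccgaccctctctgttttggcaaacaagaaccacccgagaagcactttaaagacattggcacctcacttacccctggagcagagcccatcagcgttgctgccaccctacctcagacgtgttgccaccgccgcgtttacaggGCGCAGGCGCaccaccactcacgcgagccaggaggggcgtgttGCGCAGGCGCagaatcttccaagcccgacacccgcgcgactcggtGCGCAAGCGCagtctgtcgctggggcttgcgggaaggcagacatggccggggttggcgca
In the Sdhd window, counted from the start, the capitals are an NRF1 match (GCGC, any base, TGCGC, here on the other strand) at -79, the ETS motif bound by GABP (CCGGAAG, other strand) at -46, a GC box (GGGCGG) at -3 and the ERR motif (AAGGTCA, other strand) at 37. The Sdha window holds 3 NRF1 matches, at -98, -55 and -10.

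Sdhd fell in Baf180 in both libraries. Its counts were 2284 and 2141 in scramble, 1626 and 1630 in Brd9, 2296 and 2381 in Baf250A, and 694 and 829 in Baf180, or 128 and 124, 78.8 and 85.4, 115 and 123, and 40.2 and 45.2 CPM. Both Baf180 libraries were below all others, both Brd9 libraries lay between them and the rest, and the higher Baf250A library came within 1 CPM of the lower scramble library. The log2 fold change in Baf180 was -1.56 (SE 0.13, adjusted p = 0.000109), a 2.95-fold lower level, and -1.46 with the offsets. It was called in each of the 13 alternative fits, in which it ran from -1.64 to -1.46 with adjusted p up to 0.00205.

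In Brd9 Sdhd also fell, by 0.62 on the log2 scale (SE 0.13, edgeR adjusted p = 0.0177), and by 0.51 with the offsets. Leaving out scramble replicate 1 (-0.59, adjusted p = 0.147), scramble replicate 2 (-0.65, 0.137) or the first Brd9 library (-0.54, 0.164) ended this call, and its adjusted p ran from 0.000936 to 0.164 over the 13 alternatives. In Baf250A the log2 fold change was -0.08 (adjusted p = 0.644). Tested directly between knockdowns, Sdhd was higher in Brd9 than in Baf180 by 0.94 (adjusted p = 0.00286), higher in Baf250A than in Baf180 by 1.48 (6.38e-05) and lower in Brd9 than in Baf250A by 0.54 (0.0149). The log2 values under the offsets were 0.95, 1.46 and -0.52, and all were called.

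None of the other complex II genes was called lower in Baf180. Sdha had 211 and 188 CPM in scramble, 191 and 203 in Brd9, 226 and 212 in Baf250A, and 284 and 261 in Baf180. Its rise in Baf180 was 0.45 (SE 0.13, edgeR adjusted p = 0.0248), and 0.57 with the offsets. Both Baf180 libraries were above the other 6.

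Sdhc had 112 and 113 CPM in scramble, 113 and 115 in Brd9, 102 and 103 in Baf250A, and 143 and 161 in Baf180. It rose in Baf180 by 0.43 (SE 0.12, edgeR adjusted p = 0.0242), and by 0.60 with the offsets, again with both Baf180 libraries above the rest. Sdhb had 164 and 169 CPM in scramble, 99.8 and 136 in Brd9, 143 and 124 in Baf250A, and 208 and 124 in Baf180. The 2 Baf180 values of Sdhb lay on either side of scramble, and its log2 fold change there was -0.00 (adjusted p = 0.991).

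**Figure D5:**
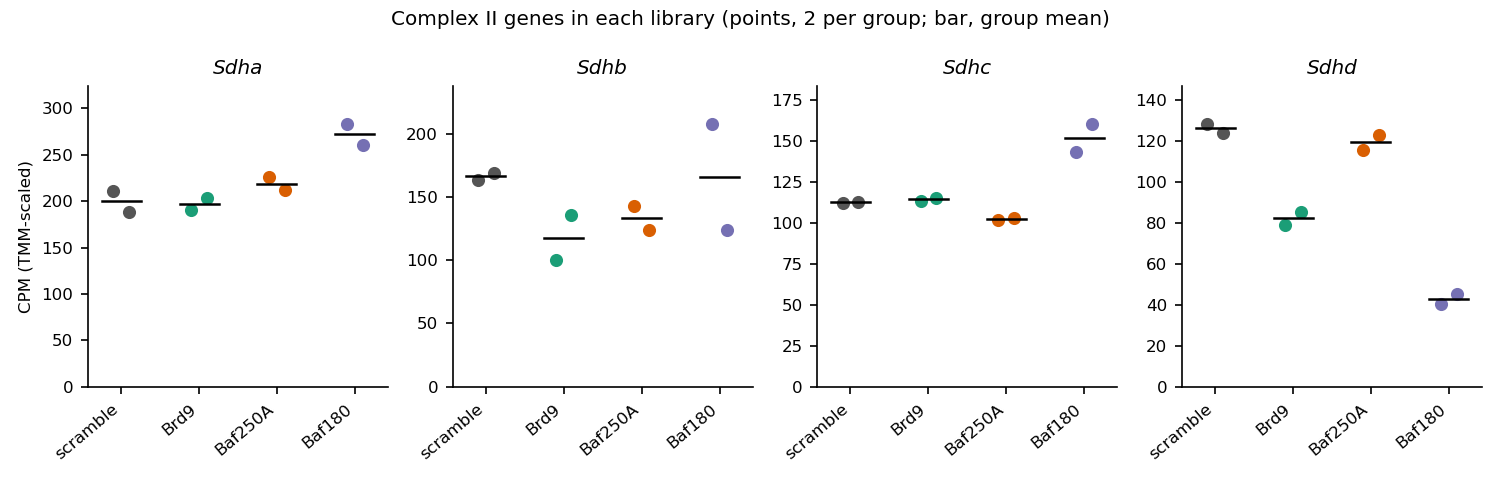
CPM of the 4 complex II genes in each of the 8 libraries (points), with the group mean as a bar; each axis starts at 0. Sdhd lies at 40.2 and 45.2 CPM in Baf180, below every other library, while Sdha and Sdhc are highest there.

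As a share of the 4 genes' summed CPM per kilobase, Sdhd was 23.8% and 23.3% in scramble, 19.4% and 18.4% in Brd9, 23.2% and 25.8% in Baf250A, and 7.06% and 9.34% in Baf180. A share within a library does not depend on how libraries are scaled. The calls of Sdha and Sdhc in Baf180 were each lost without either scramble library and with the replicate number as a block. Sdha's was also lost without Baf180 replicate 1, and Sdhc's without Baf180 replicate 2 and with upper-quartile scaling.

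Sdhd starts 52 bases from Timm8b, which encodes a small chaperone of the intermembrane space and runs in the opposite direction, so that their promoter windows share 151 bases. Timm8b, chosen after its values were seen, had 289 and 243 counts in scramble, 293 and 330 in Brd9, 331 and 351 in Baf250A, and 211 and 261 in Baf180. Its log2 fold change in Baf180 was -0.19 (edgeR adjusted p = 0.438), and the Baf180 range overlapped that of scramble. A further 4 neighbours on chromosome 9 were looked at in the same way. In Baf180 Nkapd1 had -0.65 (edgeR adjusted p = 0.0669), Pts -0.46 (0.211), Dixdc1 -0.47 (0.233) and Dlat, a subunit of pyruvate dehydrogenase, -0.25 (0.218). With the offsets the Baf180 values were -0.03 for Nkapd1, 0.08 for Pts, -0.44 for Dixdc1, 0.04 for Dlat and -0.08 for Timm8b. None of the 5 was called in any comparison with scramble.

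Complex V held the other call in Brd9. Atp5a1, the alpha subunit of the catalytic head, had 1388 and 1406 CPM in scramble, 789 and 938 in Brd9, 1178 and 1073 in Baf250A, and 1480.4 and 1164 in Baf180. Both Brd9 libraries were below all others. It fell by 0.69 (SE 0.16, edgeR adjusted p = 0.0255), and by 0.65 with the offsets. The call was lost when scramble replicate 1 (adjusted p = 0.143), scramble replicate 2 (0.165) or the first Brd9 library (0.183) was left out and with the replicate number as a block, and the adjusted p ran from 0.00022 to 0.183.

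Its partner Atp5b had 2768 and 2767 CPM in scramble and 1730.2 and 2099 in Brd9, which were the lowest value and the third lowest of the 8. The log2 fold change was -0.53 (SE 0.17, adjusted p = 0.076), not called with TMM scaling and called with the offsets at -0.41. Atp5d, the delta subunit of the stalk, had 580.4 and 634 CPM in scramble, 351 and 455 in Brd9, 447 and 339 in Baf250A, and 905 and 586 in Baf180. It was not called against scramble with TMM scaling and had -0.33 in Brd9 with the offsets, where it was called.

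Atp5pb, the b subunit of the peripheral stalk, fell in Baf180 by 0.49 (SE 0.14, adjusted p = 0.0293), and by 0.39 with the offsets. Its CPM were 243 and 217 in scramble, 181 and 199 in Brd9, 251 and 275 in Baf250A, and 148 and 181 in Baf180. The lowest 3 values were those of Baf180 and Brd9 replicate 1, and the gene was also lower in Brd9 than in Baf250A, by 0.47 (adjusted p = 0.0421).

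Cox6c, a small subunit of cytochrome c oxidase, had 53.3 and 46.1 CPM in scramble, 74.8 and 65.4 in Brd9, 76.3 and 86.4 in Baf250A, and 65.9 and 76.9 in Baf180. All 6 knockdown libraries were above both scramble libraries. The log2 fold changes were 0.49 in Brd9 (SE 0.15, adjusted p = 0.0675, not called), 0.71 in Baf250A (0.00928) and 0.52 in Baf180 (0.027). With the offsets they were 0.59, 0.67 and 0.73, called in all 3 groups, and the comparisons share their scramble libraries.

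In Baf250A the largest rise was that of Cox7b, another small subunit of complex IV, at 1.16 (SE 0.25, adjusted p = 0.00949). It had 52.0 and 44.3 CPM in scramble, 64.2 and 69.6 in Brd9, 99.2 and 116 in Baf250A, and 34.5 and 63.3 in Baf180. Both Baf250A libraries were above the other 6.

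Uqcrb, a subunit of complex III near its ubiquinone site, rose by 0.88 (SE 0.21, adjusted p = 0.0145), from 70.1 and 57.7 CPM in scramble to 105 and 130. Ndufa4 rose by 0.80 (SE 0.17, 0.00904), from 101 and 89.0 to 155 and 177, and Ndufs4 by 0.68 (SE 0.17, 0.0163), from 25.0 and 19.9 to 35.7 and 36.4. Atp5mpl, a small protein of ATP synthase, had 22.3 and 22.7 CPM in scramble and 31.4 and 30.4 in Baf250A, a rise of 0.46 (SE 0.15, adjusted p = 0.0449). In each of these genes both Baf250A libraries were above both scramble libraries.

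Of the 6 genes called in Baf250A, 5 have a GC content between 42.0% and 44.1%, at the low end of the members, and Cox6c has 48.7%. With the offsets Ndufa4 (0.36) and Cox6c (0.67) kept their calls. The other 4 did not, with 0.55 for Cox7b (edgeR adjusted p = 0.0506), 0.22 for Uqcrb, 0.21 for Ndufs4 and -0.15 for Atp5mpl, whose sign changed. Leaving out scramble replicate 2 ended the calls of all these genes, and leaving out scramble replicate 1 or Baf250A replicate 2 ended some. The share of all genes called in Baf250A fell in these fits too. Without scramble replicate 2 the log2 fold changes ran from 0.47 for Atp5mpl to 1.05 for Cox7b.

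Complex I held 4 of the 11 calls in Baf180, all higher. Ndufv3, the accessory subunit of the NADH-binding module, had 44.1 and 43.4 CPM in scramble, 46.4 and 58.3 in Brd9, 33.1 and 29.6 in Baf250A, and 82.4 and 63.0 in Baf180. It rose in Baf180 by 0.73 (SE 0.17, adjusted p = 0.0129), and by 0.41 with the offsets. The Baf180 libraries were the highest and those of Baf250A the lowest, and between these groups the direct difference was 1.21 (adjusted p = 0.000484), with 0.55 under the offsets.

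Ndufa13, an accessory subunit, rose in Baf180 by 0.71 (edgeR adjusted p = 0.0228), from 69.8 and 67.6 CPM to 136 and 88.0, and Ndufa11, a membrane subunit, by 0.61 (0.0442), from 72.2 and 79.6 to 140.0 and 91.4. In both genes Baf180 replicate 1 was the highest library and replicate 2 the next.

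Complex IV gave the remaining rises in Baf180. Cox6a1 rose by 0.51 (SE 0.17, adjusted p = 0.0483), from 243 and 237 CPM to 395 and 288, and Cox8a by 0.43 (SE 0.15, 0.0489), from 153 and 152 to 234 and 178. With the offsets Ndufa13, Ndufa11, Cox6a1 and Cox8a, whose GC contents are 58.2% to 60.4%, had 0.20, 0.13, 0.10 and 0.04 and were not called, while Sdhd, Sdhc, Sdha, Cox6c, Ndufv3 and Atp5pb were.

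Without Baf180 replicate 1, 3 members were called in Baf180, beside 13.2% of all genes, and without replicate 2 the count was 20 (25.6% of the members, beside 35.5%). Leaving out either scramble library left 1 member called, beside 13.8% and 12.3% of all genes. Upper-quartile scaling gave 6 calls, 4 higher and 2 lower, beside 35.4%. All calls of members against scramble but that of Sdhd in Baf180 were lost when at least 1 of the 4 libraries concerned was left out. The share of all genes called fell too in these fits, except without Baf180 replicate 2. A lost call is thus not by itself a trait of the members.

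Several members named for their level or the size of their mean change were called in no comparison with scramble under TMM scaling. Cyc1 had 339 and 349 CPM in scramble and 193 and 251 in Brd9, with a log2 fold change of -0.63 (adjusted p = 0.0809), and -0.34 with the offsets, where it was called. Uqcrc1, a core protein of complex III, had -0.59 in Brd9 (adjusted p = 0.125), and -0.35 with the offsets, where it was called. Cox4i1 had 307 and 308 CPM in scramble, 236 and 185 in Baf250A, and 502 and 285 in Baf180, so that the Baf180 libraries lay on both sides of scramble. Its log2 fold changes were -0.39, -0.55 and 0.36 in Brd9, Baf250A and Baf180, with adjusted p of 0.321, 0.124 and 0.29. Ndufv1, a core subunit of the NADH-binding module, had 0.60 in Baf180 (0.0741), Uqcr11 0.36 (0.228) and Ndufb9 0.31 (0.187).

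More members were called between Baf180 and either other knockdown than between any knockdown and scramble, and the same holds for all genes. Between Brd9 and Baf180, 35 members were called, 34 of them lower in Brd9 (45.5% of the members, beside 49.6% of all genes and 23.3% of all genes called lower), with a median of -0.42. The calls by complex were 15 of 36 in I, 3 of 4 in II, 3 of 9 in III, 5 of 11 in IV and 9 of 17 in V, and Sdhd was the only one higher in Brd9. Examples were Cox7a2l at -0.64 (edgeR adjusted p = 0.00605), Ndufv1 at -1.02 (0.00982), Atp5a1 at -0.62 (0.013) and Cyc1 at -0.68 (0.0242). With the offsets 31 were called (40.3% of the members, beside 32.2% of all genes), of which 14 were shared with the TMM fit. Among these were Cox7a2l (-0.58), Ndufv1 (-0.35) and Atp5a1 (-0.54) but not Cyc1 (-0.07). Without Brd9 replicate 1 a single member was called, beside 9.06% of all genes, and without Baf180 replicate 1 there were 2, beside 11.6%. Without Baf180 replicate 2 there were 48, or 61.5% of the members beside 51.9% of all genes.

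Between Baf250A and Baf180, 39 members were called, 12 higher and 27 lower in Baf250A (50.6%, beside 62.5% of all genes), with a median of -0.29. Sdhd (1.48), Cox7b (1.14), Uqcrb (0.94), Ndufa4 (0.74) and Atp5pb (0.68) were higher in Baf250A, and Ndufv3 (-1.21), Ndufv1 (-1.01) and Sdhc (-0.57) were lower. With the offsets 31 were called (beside 55.1% of all genes), of which 11 kept their call and sign, including Sdhd (1.46), Atp5pb (0.66), Ndufv3 (-0.55) and Sdhc (-0.71). The offsets turned the sign of Cox7b (-0.16) and Ndufa4 (-0.28), which were then not called, and Ndufv1 had -0.20 without a call. A further 4 members were called in both fits with opposite signs, going from higher to lower in Baf250A: Uqcrb (-0.44 with the offsets, edgeR adjusted p = 0.0353), Ndufs4 (0.61 to -0.44), Atp5mpl (0.55 to -0.78) and Atp5md (0.48 to -0.62). Without Baf180 replicate 1 the count was 13, or 16.9% of the members beside 44.7% of all genes.

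Between Brd9 and Baf250A, 5 members were called (6.49%, beside 25.0% of all genes), with a median of -0.15. Ndufv3 was higher in Brd9 by 0.74 (adjusted p = 0.0154), and Sdhd, Uqcrb (-0.75, 0.0289), Atp5pb and Ndufb5 (-0.49, 0.0198), a membrane subunit of complex I, were lower. All but Uqcrb (-0.22) kept their calls with the offsets, under which 14 were called beside 42.8% of all genes. No member remained called without Baf250A replicate 2, beside 10.9% of all genes, and 1 was called without either Brd9 library, beside 16.9% and 11.7%.

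The summed level of each complex, over all its members in the table, followed the library pattern. Complex V summed to 6229 and 6064 CPM per kilobase in scramble, 4157 and 5048 in Brd9, 5447 and 5039.8 in Baf250A, and 7351 and 5764 in Baf180. Complex I summed to 3615 and 3543 in scramble, 2891 and 3355 in Brd9, 3441 and 3202 in Baf250A, and 4869 and 3703 in Baf180. In both complexes the Brd9 and Baf250A libraries were below both scramble libraries, while the Baf180 values of complex V lay on both sides of them. Complex II, the smallest, ran from 316 to 443. No test was made of these sums.

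Other genes of the pathway were taken from 10 further lists, whose counts follow for TMM scaling and can be read beside the shares of all genes called higher and lower given above. Of the calls in these lists, 16 of 16 in Brd9, 19 of 29 in Baf250A and 17 of 28 in Baf180 kept their call and sign with the offsets. Leaving out 1 library at a time was tried for the calls of the genes with the lowest p in each list. In at least 1 fit it ended all of these in Brd9 and Baf250A and most in Baf180. The share of all genes called fell in most of these fits too. Those kept in Baf180 were Hspd1, Idh3a, Lrpprc, Ndufaf6, Pdk2, Slc25a4 and Tomm20. No assembly factor of complexes I, II, III or V was called in Brd9 with TMM scaling. Of 24 factors for complex IV a single gene was, Cox10, which makes haem for that complex and was lower (-0.62, edgeR adjusted p = 0.0334). With the offsets Brd9 had 1 higher and 4 lower for complex I and 2 higher and 5 lower for complex IV. Complex II then had 1 higher, complex V 1 higher and 1 lower and complex III none, beside 28.1% of all genes called. Of 16 assembly factors of complex I, Baf250A had Ndufaf4 higher (0.86, 0.037) and Nubpl (-0.86, 0.0157) and Dmac1 (-0.51) lower. Baf180 had 2 lower, Ndufaf4 (-0.93, 0.0285) and Ndufaf6 (-1.05, 0.0061). With the offsets Ndufaf4 was called in neither group, with -0.10 in Baf250A and -0.11 in Baf180, while Ndufaf6 kept its call at -0.98.

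Sdhaf4, an assembly factor of complex II, was higher in Baf180 (0.77, edgeR adjusted p = 0.0239), the single call among 4. Of 6 factors for complex III, 2 were lower in Baf180, Ttc19 (-0.93, adjusted p = 0.0226, and -0.56 with the offsets) and Lyrm7 (-1.20, 0.0469). The call of Lyrm7 was lost in 10 of 12 alternative fits, among them DESeq2, limma-voom and the offsets (-0.71). Of the 24 for complex IV, Baf250A had Cox16 (0.88, 0.0272) and Lrpprc (0.46) higher and Taco1 (-0.72, 0.0266) and Surf1 (-0.69) lower. Taco1 kept its call there with the offsets, and Cox16, Lrpprc and Surf1 did not. Lrpprc, a protein that stabilises mitochondrial mRNAs, was lower in Baf180 (-0.93, 0.0029). Tmem70 was the single call among 5 factors for complex V, higher in Baf250A (0.96, 0.0176). Of 14 genes for cytochrome c and ubiquinone synthesis, Brd9 had Coq4 lower (-0.82, 0.0414). Baf250A had Coq10b higher (1.04, 0.00829) and Coq4 (-0.72, 0.0314) and Coq8b (-0.70) lower. Baf180 had Coq8b (0.89, 0.0149) and Coq9 (0.52) higher and Pdss1 lower (-1.11, 0.0112). The calls of Coq8b in Baf250A and Coq9 in Baf180 were lost with the offsets.

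Of 17 tested regulators of mitochondrial biogenesis, 2 were lower in Brd9, the PGC-1-related coactivator Pprc1 (-0.77, edgeR adjusted p = 0.0168) and Nrf1 (-0.51, 0.0434). Both were also called lower with the offsets, at -0.76 and -0.51, while each call was lost without either scramble library or without Brd9 replicate 1. That of Nrf1 was kept in 7 of 13 alternative fits and was also lost with upper-quartile scaling, the replicate block and without Brd9 replicate 2. In Baf250A 3 were higher, the GABP subunits Gabpa (1.07, 0.0119) and Gabpb2 (0.72) and the mitochondrial transcription factor Tfb2m (0.99, 0.0178). Under the offsets they had 0.21, 0.25 and 0.38, and of these only Tfb2m was still called. In Baf180 the receptor gene Esrra was higher (0.68) and Yy1 (-0.76, 0.0287), Gabpa (-0.81, 0.0317) and Tfam (-0.66) were lower. Of these Yy1 kept its call and size with the offsets (-0.81). Gabpa had -0.10, Tfam -0.21 and Esrra 0.12, and none of them was then called. Ppargc1a, the gene of PGC-1alpha, had 2 to 10 counts per library and was not tested.

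Genes of protein import and the outer membrane, a list of 20, were lower in Brd9 in 6 cases with none higher, beside 3.57% of all genes called lower there, and their median was -0.31. The lowest p were those of the chaperones Timm9 (-1.14, edgeR adjusted p = 0.00948) and Timm10 (-1.07, 0.0172), at -1.10 and -0.85 with the offsets. With the offsets 11 were lower and none higher in Brd9 (median -0.32), beside 1701 lower and 1783 higher of all 12420 genes. In Baf180 7 were lower and none higher (median -0.37), beside 17.0% of all genes called lower, including Tomm20 (-0.81, 0.00163) and the chaperonin Hspd1 (-0.97, 0.00358). With the offsets 11 were lower and 3 higher in Baf180 (median -0.32), beside 2312 lower and 2411 higher of all 12420 genes. Tomm20 was then no longer called (-0.38). In Baf250A 5 were higher and none lower, beside 15.5% of all genes called higher. They were Tomm70a (0.79, 0.018), Hspd1 (0.63, 0.0211), its partner Hspe1 (0.45), Timm9 (0.66) and Timm8a1 (0.54). With the offsets 4 were higher and 1 lower in Baf250A, beside 2211 higher and 2223 lower of all 12420 genes, and Tomm70a was at -0.03.

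Of 15 inner membrane carriers and cristae genes, the ADP/ATP carrier Slc25a5 was lower in Brd9 (-0.57, edgeR adjusted p = 0.0252) and Chchd6 in Baf250A (-0.73, 0.0361). In Baf180 5 were lower. They were the carriers Slc25a4 (-0.83, 0.00225) and Slc25a5 (-0.54), the cristae organisers Immt (-0.54, 0.0122) and Chchd3 (-0.64), and Opa1 (-0.64), which fuses inner membranes. Opa1 did not keep its call with the offsets. Of 24 genes of the tricarboxylic acid cycle and pyruvate dehydrogenase, 3 were higher and 2 lower in Brd9. The 3 were the kinases that inhibit pyruvate dehydrogenase, Pdk1 (0.98), Pdk2 (1.10, 0.0181) and Pdk4 (0.78), and the 2 were citrate synthase, Cs (-0.49), and Idh3b (-0.59, 0.0215). Baf250A had 6 higher, among them Pdk1 (0.79), Pdk3 (0.49) and Pdk4 (0.72), and 3 lower, Idh2 (-0.77, 0.00763), Mdh2 (-0.74, 0.0144) and Cs (-0.54). In Baf180 Pdk2 was higher (2.19, 0.000303) and Idh3a (-0.95, 0.00322) and Dld (-0.79) were lower, with 1.78, -0.51 and -0.03 under the offsets.

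Promoter windows were found for 68 member genes, 73 windows in all, and compared with 21932 windows of 300 bases of genes in the table, counting a motif on either strand. The NRF1 motif (GCGC, any base, TGCGC) was in 24.7% of member windows and 6.39% of all, and its stricter form with A as the free base, a subset of it, in 6.85% and 1.33%. CCGGAAG (ETS) was in 23.3% and 11.5%, AAGATGGCG (YY1) in 9.59% and 1.86%, AAGGTCA (ERR) in 11.0% and 4.07%, and GGGCGG (GC box) in 39.7% and 46.4%. A match describes letters in the window and not binding. The Sdhd and Sdha windows printed above are thus among the 18 member windows that hold an NRF1 match.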

How the data were processed

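Messenger RNA was measured in 8 libraries of C2C12 cells, 2 for each shRNA, from TRIzol total RNA sequenced on a BGISEQ-500, per the labels. The authors deposited estimated counts per gene and library, not normalised, and a gene length column in bases, per the file headers. For software, the submitters' processing notes list RSEM, Bowtie2, HISAT2, Cufflinks, StringTie and DESeq2, with the build mm10, but no step for any of them. Versions and strandedness were not given in the sources used here. Genes that overlap on opposite strands are therefore uncertain. In 6 members (Atp5pb, Atp5j, Cox7c, Ndufs1, Uqcrc2 and Ndufa13) some counts were not whole, and these genes are uncertain where reads were split between similar copies.

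Counts were rounded. Gene IDs were matched to RefSeq names for 24479 of 24573 genes, by accession for 9, and 85 were not matched. Genes passing edgeR's filterByExpr (12420) were scaled by TMM and fitted with edgeR 4.0.16 in R 4.3.3 (glmQLFit, glmQLFTest), all 8 libraries and 4 groups in 1 fit, with Benjamini-Hochberg adjustment within each of 6 comparisons. Standard errors were derived from the log2 fold change and the F statistic. The second fit added offsets per library from a loess curve (span 0.3) on GC content, then length, with GC taken from GENCODE transcripts for 98.95% of tested genes. Alternatives were limma-voom (limma 3.58.1), DESeq2 1.42.0, a replicate block, scaling by RLE or upper quartile, a stricter filter (mean of 5 CPM or more) or none, a fit on the 4 libraries compared and leaving out each library. The edgeR fit with TMM scaling was tested on simulated counts for Brd9 against scramble, which held no relation to GC content. The offsets and the other alternatives were not tested in this way.

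The members and lists were chosen with earlier results of these data known. Genes named were those called (at most 12 a comparison), the 2 highest and 2 most changed of each complex, isoform families, and of each other list at most 2 called genes with the lowest p in a comparison; other called genes of short lists were named after their values were seen. Values of 1 called gene are not reported here. Counts have no molecular identifiers stated, and the counting limit of 3 covers counting error only.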

Additional observations from a re-analysis of the deposited data

How the results depend on the processing

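The counts of called members moved with the processing, and so did the share of all genes called. Against scramble, Brd9 had 11 calls without the filter on low counts (13.1% of the members, beside 14.3% of all genes), 5 with DESeq2 (6.49%, beside 14.4%), 9 with the GC and length offsets (11.7%, beside 28.1%) and 11 from the 4 libraries of the comparison alone (14.3%, beside 21%), in place of 2. Baf250A had 10 calls without the filter (11.9%, beside 26.0%) and 17 from its 4 libraries (22.1%, beside 39.4%), in place of 6. Baf180 had 6 calls with upper-quartile scaling (7.79%, beside 35.4%), 7 with limma-voom (9.09%, beside 31.6%) and 25 with the offsets (32.5%, beside 38.0%), in place of 11. Brd9 against Baf250A had 8 with RLE scaling (beside 25.8%), 11 with DESeq2 (beside 26.6%) and 14 with the offsets (beside 42.8%), in place of 5. The offsets also moved the members' median from -0.24 to -0.063 in Brd9 and from -0.15 to 0.0196, the other sign, in Baf250A. Why these values moved was not tested.

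With 1 library left out, the calls against scramble ran from 0 to 2 in Brd9, 0 to 6 in Baf250A and 1 to 20 in Baf180, where all genes ran from 1.82% to 8.02%, 9.19% to 29.3% and 12.3% to 35.5%. They ran from 0 to 4 for Brd9 against Baf250A, 1 to 48 for Brd9 against Baf180 and 13 to 47 for Baf250A against Baf180. Between knockdowns the share of all genes called also moved with the library left out, so such a move is not by itself a trait of the members. The members' median kept its direction in each fit with 1 library left out. Against scramble it ran from -0.33 to -0.11 in Brd9, from -0.14 to -0.0501 in Baf250A and from 0.016 to 0.30 in Baf180. For Brd9 it ran from -0.28 to -0.08 against Baf250A and from -0.55 to -0.25 against Baf180. For Baf250A against Baf180 it ran from -0.46 to -0.08.

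Replicate numbers come from the titles, which do not say whether samples with the same number were prepared together. Between groups, the differences between replicates correlated from -0.44 to 0.41 across all genes and from -0.59 to 0.78 across the members. The highest values, 0.41 and 0.78, were those between Baf250A and Baf180. Whether the numbers pair the samples was not tested. With the replicate number as a block, 1 member was called in Brd9 (Sdhd), 5 in Baf250A and 4 in Baf180. These are 1.3%, 6.49% and 5.19% of the members, beside 5.81%, 24.3% and 28.1% of all genes.

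Under the offsets the sign turned, against the value with TMM scaling, for Atp5mpl (-0.15), Ndufaf4 (-0.10) and Tomm70a (-0.035) in Baf250A. These were called with TMM scaling. In Baf180 it turned for Uqcrb (0.66), Atp5mpl (0.63), Cyc1 (-0.28), Uqcrc1 (-0.38), Pprc1 (-0.34) and Mdh2 (-0.24), which were called with the offsets alone. Of 2610 values of named genes against scramble recomputed, 2288 kept their side of the threshold, 226 lost a call, 87 gained one and these 9 reversed. Between Baf250A and Baf180, Uqcrb, Ndufs4, Atp5mpl and Atp5md were called in both fits with opposite signs.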
